A study of Danio rerio with 18 samples.

Results

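The day of zebrafish development from 24 to 48 hours post fertilization (hpf) was followed in whole embryos kept in water with TMAT gold particles. The members were chosen by their labels: the 3 arrays of TMAT embryos at 48 hpf and the 3 at 24 hpf, 6 of the 18 arrays of the study. TMAT embryos lay in 10 µg/mL of gold particles with a 1.5 nm core whose ligand, trimethylammoniumethanethiol, carries a positive charge. The other groups, also 3 arrays at each age, were MES embryos, in 50 µg/mL of particles of the same core size with the negatively charged ligand mercaptoethanesulfonate, and CON embryos in vehicle. Every embryo was dechorionated at 4 hpf, exposure ran from 6 hpf to collection, and each array carried total RNA from a pool of 40 embryos. The labels give no strain and do not say whether pools came from separate clutches, so p-values measure the spread between these pools. Whole embryos hold every tissue, and a higher signal from more cells of a type and one from more RNA in each cell cannot be told apart.

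At 24 hpf a zebrafish embryo has its main body axis, a tubular brain, a beating heart and somites that already twitch, and many of its cells still divide. Over the next day the lens fibres fill with crystallins, the retina lays down its layers, neurons form synapses, fast muscle matures and cartilage begins to form in the head. The early genes of patterning and of dividing progenitors become quieter over the same period. The features measured here cover a part of these programmes, since 2659 of 37105 features could be given a current gene symbol.

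The 6 arrays had median intensities between 1925 and 2065, and their random control probes, which match no transcript, lay between 79.6 and 96.4. Array 2 at 24 hpf stood apart. Its correlation across features was 0.942 with array 1 and 0.947 with array 3 of its age, while arrays 1 and 3 correlated at 0.989 with each other. The 3 arrays at 48 hpf correlated at 0.979 to 0.986. Array 2 at 24 hpf lay more than 1 log2 unit below both others of its age for 3469 features and more than 1 above both for 490, whereas each of the other 5 arrays lay as far below its pair for 32 to 378 features. Gene lists with a median over 1 lower on array 2 than on the mean of arrays 1 and 3 were those of the circadian clock (-1.37, 3 of 5 genes over 1 lower), of notochord and hatching gland (-1.11, 2 of 4 features, both of cav1) and of axon guidance. In the last, 26 of 51 genes of axon guidance and neural adhesion were over 1 lower on array 2 than on the mean of arrays 1 and 3, with a median of -1.01, against a median of 0.09 over all features. Counts over all features, and those of many gene lists, are therefore given with and without this array.

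**Figure D1:**
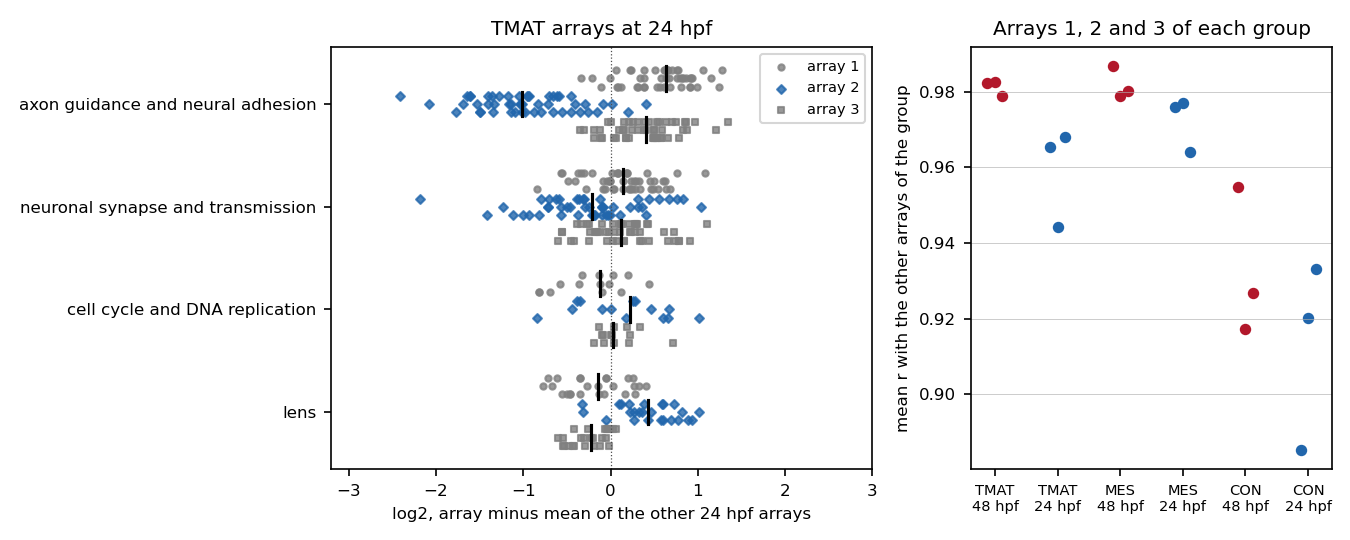
Left, each gene's log2 intensity on a TMAT array at 24 hpf minus the mean of the other 2 arrays of that age, for 4 gene lists (circles array 1, diamonds array 2, squares array 3, black bars medians); array 2 sits at a median of -1.01 for axon guidance and neural adhesion. Right, each array's mean correlation across features with the other arrays of its group, red at 48 hpf and blue at 24 hpf; TMAT arrays at 48 hpf lie together, and array 2 at 24 hpf lies below its neighbours.

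Embryos under TMAT particles changed over much of the measured transcriptome in this day. Of 37105 features, 6359 passed the test (17.1%; limma, Benjamini-Hochberg adjusted p under 0.05), with 3218 higher at 48 hpf (8.67%) and 3141 lower (8.47%). The median called rise was 1.40 log2 units and the median called fall -1.16. Large changes were mostly rises: 170 features rose and 37 fell by at least 3 log2 units, and 46 rose and 16 fell by at least 4. Among features with a symbol, 343 rose (12.9%) and 254 fell (9.55%). The shares called in gene lists are to be read against these. The 3 values at 48 hpf lay wholly above or wholly below the 3 at 24 hpf for 13415 features (36.2%), of which 5963 were higher at 48 hpf (16.1%) and 7452 lower (20.1%). Without array 2 at 24 hpf the count grew to 9543 (25.7%), with 4230 higher (11.4%) and 5313 lower (14.3%), and it held 6245 of the 6359 features. Leaving out 1 of the other arrays gave between 3072 features (without array 1 at 48 hpf) and 5176 (without array 1 at 24 hpf), and 2791 features passed with all arrays and in each of the 6 fits with 1 array less. Of the 172 genes named by rule, 146 passed, and 87 of these also passed in each of those 6 fits; where a named gene did not, its highest adjusted p over them is given. A fit with 1 array less called fewer features unless array 2 at 24 hpf was the one left out. Most counts of gene lists are given with their lowest value over those fits.

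Lens genes rose together and had the highest median change of the 33 gene lists. Of 25 measured genes 21 rose and 1 fell, with a median of 2.60 against -0.03 over all features and -0.06 over features with a symbol. The gamma M2 crystallins, which pack the fibre cells of the fish lens, all rose: 10 of 10 measured, by 1.94 to 6.29 (8 at the lowest with 1 array less). The gene crygm2d4 (NM_001089431) measured 13.93, 14.02 and 14.68 in log2 intensity at 48 hpf, against 7.83, 8.21 and 7.72 at 24 hpf. Those 24 hpf values averaged 1.45 above the random probes, so the transcript was close to background there. The rise was 6.29 ± 0.26 (SE), 78.3-fold, with an adjusted p of 5.67e-05. crygm2d17 (NM_001099243) and crygm2d20 (NM_001082939) behaved alike, up by 5.91 ± 0.25 and 5.69 ± 0.20. Other members started higher: crygm2d5 measured 15.89, 15.70 and 15.63 at 48 hpf, against 11.44, 11.55 and 11.44 at 24 hpf, a rise of 4.26 ± 0.18. At 48 hpf the 10 features averaged 14.31 in log2 intensity. Gamma M2 crystallins are near copies of each other, and how far probes of one bind transcripts of another was not tested.

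Beyond the gamma M2 family, all 5 measured beta crystallins rose, by 1.12 to 3.16 (at least 4 with 1 array less). lim2.5, which codes for a membrane protein of lens fibres, measured 11.16, 11.93 and 12.14 at 48 hpf, against 7.33, 7.19 and 7.14 at 24 hpf, only 0.75 above the random probes. That is within 1 log2 unit of these probes on all 3 arrays, so the 24 hpf level has only an upper bound. With each array set no lower than 1 unit above its random probes, a floor also used for other genes near background, the rise was at least 4.27, at least 19.3-fold (fitted 4.52 ± 0.28, adjusted p 0.000165). The only lens gene that fell was foxe3 (named after its value was seen), a transcription factor of the lens epithelium that keeps its cells dividing. It measured 7.81, 8.31 and 7.50 at 48 hpf, against 8.74, 9.71 and 9.21 at 24 hpf. The groups did not overlap and the fall was -1.35 ± 0.31 (adjusted p 0.0243, highest 0.091, lost without array 3 at 24 hpf or arrays 1 or 3 at 48 hpf). Leaving out array 2 at 24 hpf left the lens count at 21 rises and 1 fall, and leaving out 1 other array gave 18 to 20 rises.

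**Figure D2:**
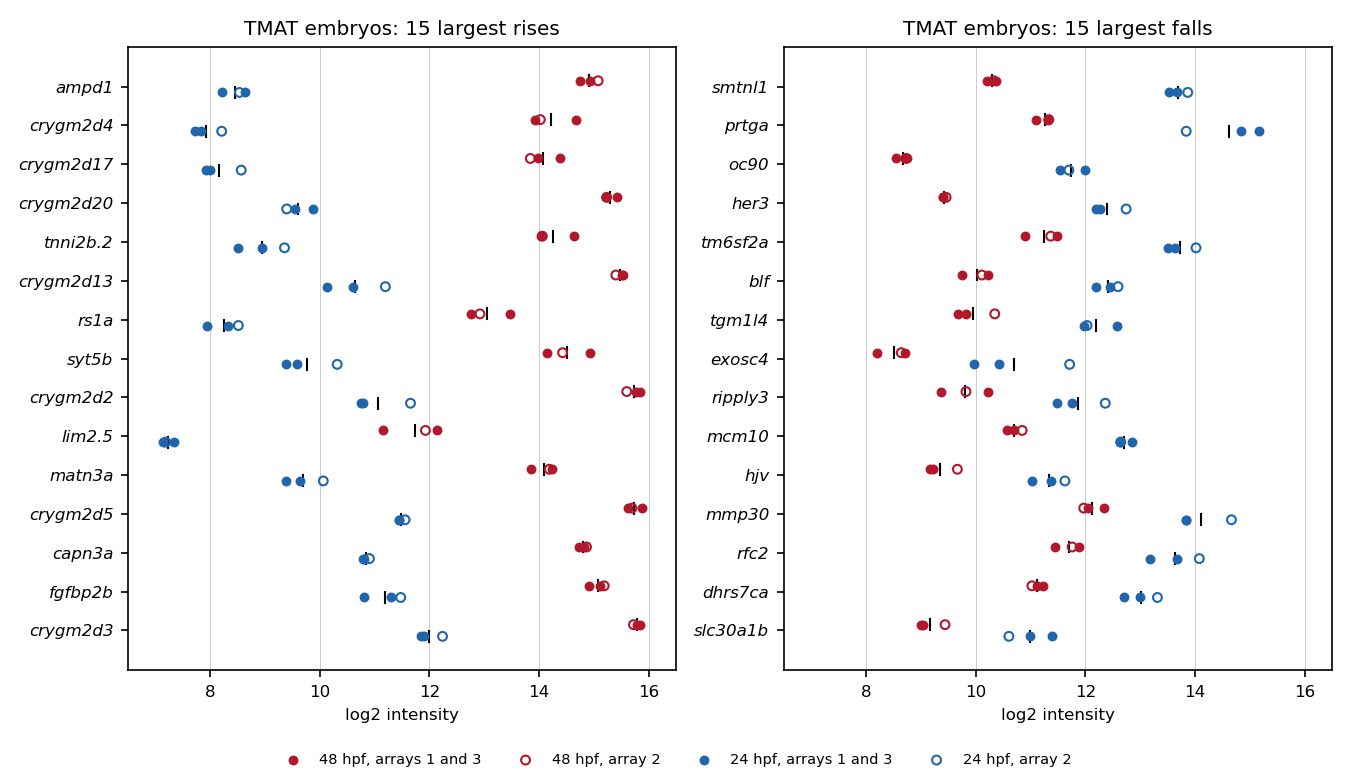
log2 intensity of the 15 named genes with the largest rise and the 15 with the largest fall in TMAT embryos, red at 48 hpf and blue at 24 hpf, 1 point an array (open circles array 2), black bars the mean of 3 arrays. The genes were chosen so that the ages do not overlap; ampd1 leads the rises with means of 14.92 at 48 hpf and 8.46 at 24 hpf, followed by gamma crystallins.

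Some genes of skeletal muscle rose steeply and some fell, while 18 of 33 did not pass. ampd1 (NM_200893), the AMP deaminase of skeletal muscle, had the largest rise of all 37105 features. It measured 14.93, 15.08 and 14.75 at 48 hpf, against 8.63, 8.53 and 8.21 at 24 hpf, a rise of 6.46 ± 0.20, 88.3-fold (adjusted p 5.17e-05). tnni2b.2, a fast troponin I that holds the thin filament off in the absence of calcium, measured 14.04, 14.06 and 14.64 at 48 hpf, against 8.95, 9.35 and 8.51 at 24 hpf, and rose by 5.31 ± 0.28. capn3a, the calpain protease of muscle, measured 14.82, 14.87 and 14.72 at 48 hpf, against 10.79, 10.90 and 10.81 at 24 hpf, and rose by 3.97 ± 0.17. Within each of these 3 genes the ages lay several log2 units apart and arrays of 1 age lay within 1. casq1a, the calcium buffer of the sarcoplasmic reticulum, rose by 1.56 ± 0.23. In all, 10 of 33 skeletal muscle genes rose (30.3%, with 12.9% of features with a symbol) and 5 fell (15.2%, with 9.55%). Their median was 0.22. Without array 2 at 24 hpf 11 rose and 6 fell. The lowest counts were 7 rises (without array 3 at 24 hpf) and 2 falls (without that array or arrays 1 or 3 at 48 hpf). Of 8 troponin I genes 4 rose, 1 without array 3 at 24 hpf and 2 without any 1 array at 48 hpf, and their changes ran from -0.28 to 5.31.

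The 5 that fell were smtnl1, vgll2a, smyd1b, srl and chrnd (the last 2 named after their values were seen). smtnl1, a smoothelin-like protein of muscle, had the largest fall among the named genes. It measured 10.36, 10.33 and 10.21 at 48 hpf, against 13.67, 13.87 and 13.52 at 24 hpf, a fall of -3.38 ± 0.19 (adjusted p 0.000121). smyd1b, a methyltransferase needed to assemble the first sarcomeres, measured 13.69, 13.99 and 13.55 at 48 hpf, against 14.99, 15.11 and 15.18 at 24 hpf, and fell by 1.35 ± 0.20 on the log2 scale. vgll2a, a cofactor of TEAD transcription factors in muscle and pharyngeal tissue, fell by 1.41 ± 0.32 (highest adjusted p 0.088, lost whenever an array other than array 2 at 24 hpf was left out). Heart genes were few. Of 5 measured, 1 rose and 1 fell (20% each way, with 12.9% and 9.55% of features with a symbol). Without array 2 at 24 hpf 1 rose and 2 fell. The cofactor fhl2b rose by at least 1.24 (fitted 1.36 ± 0.19, 24 hpf level within 1 of the random probes on 2 of 3 arrays). myh6, the atrial myosin heavy chain, fell by 1.47 ± 0.32 (highest adjusted p 0.074, lost without arrays 1 or 3 of either age).

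Photoreceptor and retina genes rose or did not pass. Of 14 measured genes 7 rose and none fell (median 0.71), and 8 rose without array 2 at 24 hpf, with 5 as the lowest count (without arrays 1 or 3 at 24 hpf or array 1 at 48 hpf). rs1a, which codes for retinoschisin, an adhesion protein secreted in the retina, measured 12.76, 12.92 and 13.48 at 48 hpf, against 8.33, 8.51 and 7.93 at 24 hpf. It rose by 4.80 ± 0.26 (adjusted p 0.000121). sagb, an arrestin that ends the light response, measured 11.18, 11.33 and 11.18 at 48 hpf, against 7.64, 8.03 and 8.10 at 24 hpf, and rose by 3.31 ± 0.20. The second arrestin, saga, rose by 1.63 ± 0.21. bhlhe23, a basic helix-loop-helix factor of retinal neurons, rose by 3.25 ± 0.24, and pde6hb, the inhibitory subunit of a cone phosphodiesterase, by 1.34 ± 0.25. At 24 hpf bhlhe23 averaged 1.01 and sagb 1.45 above the random probes, so both were close to background there. The rod factor nrl rose by 0.85 ± 0.23 (highest adjusted p 0.14, lost without arrays 1 or 3 at 24 hpf or 1 or 2 at 48 hpf). The kinases grk1a and grk7b, which act on opsins, were among the 7 genes that did not pass (named after their values were seen).

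Genes of synapses and transmission mostly rose. Of 49 measured, 30 rose and none fell, with a median of 1.25. Without array 2 at 24 hpf 30 rose and 2 fell, and leaving out 1 other array gave 21 to 27 rises. syt5b, a synaptotagmin that senses calcium at vesicle release, measured 14.15, 14.43 and 14.93 at 48 hpf, against 9.38, 10.32 and 9.58 at 24 hpf, and rose by 4.74 ± 0.31 (adjusted p 0.000219). The list covered both signs of transmission. On the inhibitory side slc6a5, the glycine transporter of glycinergic neurons, rose by 2.12 ± 0.20, and slc32a1, which loads GABA and glycine into vesicles, by 2.08 ± 0.27.

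On the excitatory side all 5 measured AMPA receptor subunits rose, by 1.29 to 2.28, and 3 without arrays 1 or 2 at 48 hpf (this family and those of crystallins, troponins, dopamine receptors, protocadherins, ribosomal proteins, Wnt ligands, claudins, globins and cyp2aa were counted after values were seen). slc1a1, a glutamate transporter, was on the list of solute carriers and not on that of synapses. It measured 11.05, 11.19 and 10.98 at 48 hpf, against 9.30, 9.31 and 9.41 at 24 hpf, and rose by 1.73 ± 0.18 (adjusted p 0.00111). Among the genes that act in any synapse, syn2a, a synapsin that tethers vesicles, rose by 2.09 ± 0.25 and nrxn3b, a neurexin that spans the synaptic cleft, by 2.45 ± 0.21. scn3b, a sodium channel beta subunit, rose by 1.52 ± 0.17. Of 5 dopamine receptor genes 2 rose, 1 when any array but array 2 at 24 hpf was left out, and all 5 had positive values. gad3, a glutamate decarboxylase, measured 10.05, 10.08 and 9.93 at 48 hpf, against 9.31, 9.82 and 9.61 at 24 hpf. That is 0.44 ± 0.20 and did not pass (adjusted p 0.183).

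The 3 measured genes of glia and myelin rose, also in each fit with 1 array less. fabp7a, the fatty acid binding protein of radial glia, measured 14.56, 15.26 and 14.88 at 48 hpf, against 12.48, 13.10 and 12.35 at 24 hpf, up by 2.26 ± 0.28. mag, an adhesion protein of myelin, rose by 2.13 ± 0.28, and olig1, a factor of the oligodendrocyte lineage, by at least 1.57 (fitted 1.62 ± 0.23, 24 hpf level within 1 of the random probes on 1 of 3 arrays).

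Genes of axon guidance and neural adhesion mostly had positive values. Of 51 measured, 47 had positive values, with a median of 0.56 (0.33 without array 2 at 24 hpf). Over all features 17833 of 37105 had positive values. With all arrays 10 rose and 1 fell, without array 2 at 24 hpf 14 rose and 2 fell, and without arrays 1 or 2 at 48 hpf 3 rose and 1 fell. The list was mostly made of clustered protocadherins, adhesion proteins that neurons express in varied sets. All 28 had positive values, of 0.16 to 1.83, 6 rose, and 15 were over 1 lower on array 2 at 24 hpf than on its pair. How far probes of one protocadherin bind transcripts of another was not tested. Without that array 9 rose, 11 without array 1 at 24 hpf, 4 without array 3 of either age and 2 without arrays 1 or 2 at 48 hpf. pcdh2aa1 measured 9.95, 9.79 and 9.68 at 48 hpf, against 8.70, 8.07 and 8.56 at 24 hpf, and rose by 1.36 ± 0.22. dscama, an adhesion protein of the retina and brain, measured 12.02, 12.53 and 11.78 at 48 hpf, against 9.87, 9.36 and 10.25 at 24 hpf, and rose by 2.29 ± 0.30. The 1 gene that fell did so steeply. prtga, protogenin, an immunoglobulin protein of early neural tissue and somites, measured 11.33, 11.33 and 11.10 at 48 hpf, against 14.84, 13.84 and 15.17 at 24 hpf. It fell by 3.36 ± 0.34 on the log2 scale, 10.3-fold (adjusted p 0.00111). Array 2 was the lowest at 24 hpf here too, and the change was -3.75 without it.

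Neuropeptides and hormones rose in part. Of 26 measured, 7 rose and 1 fell (median 0.37), and 7 and 2 without array 2 at 24 hpf, with 2 and 0 as the lowest counts (both without array 1 at 48 hpf). With all arrays that is 26.9% rising and 3.85% falling, against 12.9% and 9.55% of features with a symbol. scg2b, a granin of secretory granules, measured 14.32, 14.43 and 14.32 at 48 hpf, against 12.71, 12.43 and 12.81 at 24 hpf, and rose by 1.71 ± 0.19. npffl, a precursor of neuropeptide FF, rose by 1.51 ± 0.36 (highest adjusted p 0.10, lost without arrays 1 or 3 of either age). The receptor of the peptide PACAP, adcyap1r1a, rose by 1.31 ± 0.25 (highest adjusted p 0.054, lost without array 1 at 48 hpf). pth1b, a parathyroid hormone, fell by 1.39 ± 0.32 (highest adjusted p 0.083, lost without any 1 array at 48 hpf). avp, vasotocin, measured 12.85, 11.75 and 12.50 at 48 hpf, against 11.64, 11.73 and 10.86 at 24 hpf, and did not pass (0.96 ± 0.35, adjusted p 0.106), although the groups did not overlap.

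Genes of dividing cells fell. Of 14 measured genes of the cell cycle and DNA replication 11 fell and none rose, with a median of -1.24, and the count was the same without array 2 at 24 hpf. Leaving out 1 other array gave 6 (without array 1 at 48 hpf) to 10 falls. mcm10, which helps to start replication forks, measured 10.70, 10.85 and 10.58 at 48 hpf, against 12.63, 12.64 and 12.86 at 24 hpf, and fell by 2.00 ± 0.18 on the log2 scale (adjusted p 0.000767). rfc2, a subunit of the loader of the sliding clamp, measured 11.45, 11.76 and 11.89 at 48 hpf, against 13.18, 14.08 and 13.67 at 24 hpf, and fell by 1.94 ± 0.27. The other named members were gins3 of the replicative helicase, e2f3, a factor of S phase genes, orc2 of the origin complex and rfc5, with falls of 1.83 ± 0.32, 1.31 ± 0.20, 1.19 ± 0.18 and 1.18 ± 0.20. ccna2, ccnd2a and hmgb1a did not pass (named after their values were seen).

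Genes of ribosome assembly fell in part. Of 31 genes of ribosome biogenesis and translation 9 fell (29%, with 9.55% of features with a symbol) and 1 rose (3.23%, with 12.9%). Their median was -0.47. Without array 2 at 24 hpf 10 fell and 1 rose. The lowest count was 2 falls (without array 3 at 24 hpf or array 1 at 48 hpf). All 9 act in making ribosomes, not in the finished particle, while the 5 measured cytosolic ribosomal proteins had values of -0.34 to 0.013 and did not pass (0 in limma, and 0 at an unadjusted p under 0.05). mrto4, a factor of large subunit assembly, measured 12.73, 12.54 and 12.92 at 48 hpf, against 14.18, 14.29 and 14.06 at 24 hpf, and fell by 1.45 ± 0.19 (adjusted p 0.00302). polr1d, a subunit of RNA polymerases I and III, fell by 1.49 ± 0.30. eef1a1b, a translation elongation factor, rose by 1.31 ± 0.22. Whether assembly genes differed from ribosomal proteins was not tested.

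Mitochondrial and proteasome genes were called about as often as other features, or less. Of 35 mitochondrial genes 3 fell (8.57%) and 1 rose (2.86%), with 8.47% of all features falling and 8.67% rising. Their median was -0.30 (-0.14 without array 2 at 24 hpf), and no fall passed without array 3 at 24 hpf or any 1 array at 48 hpf. Of the mitochondrial ribosomal proteins 12 of 13 had negative values (19272 of 37105 over all features). Of them 1, mrps27, fell (-0.95 ± 0.20, highest adjusted p 0.081, lost without array 3 at 24 hpf or any 1 array at 48 hpf). The median of these 13 was -0.44, and -0.24 without array 2 at 24 hpf, which lay a median of 0.64 above its pair. The riser was cox5b2, a subunit of cytochrome oxidase, by 1.48 ± 0.29 (highest adjusted p 0.053, lost without array 3 at 24 hpf). Of 47 genes of the proteasome and ubiquitin 5 fell (10.6%) and 2 rose (4.26%), with a median of -0.057, and at most 1 fell without array 3 at 24 hpf or any 1 array at 48 hpf. One of these was ube2c, the ubiquitin carrier of mitotic exit, which fell by 1.09 ± 0.22 (highest adjusted p 0.066, lost without arrays 1 or 2 at 48 hpf).

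Several repressors and factors of neural progenitors fell, and some factors of differentiated neurons rose. her3, a Hairy/E(spl) repressor that holds neural cells undifferentiated, measured 9.41, 9.46 and 9.40 at 48 hpf, against 12.19, 12.74 and 12.26 at 24 hpf, and fell by 2.98 ± 0.21 (adjusted p 0.000275). Its relative her12 fell by 1.59 ± 0.24, and sox19b, a SoxB1 factor of neural stem cells, fell by 1.34 ± 0.18. pou4f4 and pou4f3, Brn3 factors of sensory and retinal ganglion neurons, rose by 1.72 ± 0.24 and 1.47 ± 0.24. The other rise on this list of progenitor and proneural genes was irx2a, by 1.16 ± 0.23 (highest adjusted p 0.052). In all 5 of 20 fell (25%, with 9.55% of features with a symbol) and 3 rose (15%, with 12.9%), with a median of -0.18. Without array 2 at 24 hpf 9 fell and 3 rose (median -0.61), without array 3 at 24 hpf or arrays 1 or 3 at 48 hpf 3 fell, and array 2 at 24 hpf was over 1 lower than its pair in 6 of the 20.

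Somite and patterning genes mostly did not pass. Of 25 measured 5 fell and 3 rose (median -0.04, and -0.11 without array 2 at 24 hpf), with 3 falls and 1 rise as the lowest counts (both without array 1 at 48 hpf). With all arrays that is 20% falling and 12% rising, against 9.55% and 12.9% of features with a symbol. ripply3, a repressor of T-box factors in the pharynx, measured 10.22, 9.82 and 9.37 at 48 hpf, against 11.49, 12.36 and 11.76 at 24 hpf, and fell by 2.07 ± 0.31. meox1, a homeobox factor of somites, fell by 1.42 ± 0.24, and cyp26c1, which breaks down retinoic acid, fell by 1.41 ± 0.28 (highest adjusted p 0.059, lost without array 3 at 24 hpf or array 1 at 48 hpf). cdx1b, a caudal factor active in the gut, rose by 1.19 ± 0.20. The single measured Hox gene, hoxc13b, fell by 1.04 ± 0.28 (highest adjusted p 0.15, lost without array 3 at 24 hpf or any 1 array at 48 hpf). The 5 measured Wnt ligands had negative values, of -1.83 to -0.044. In limma 0 passed, and 4 of them had an unadjusted p under 0.05; 1 fell without array 2 at 24 hpf.

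Some cartilage and matrix genes rose, and an early otolith protein fell. Of 27 measured, 8 rose (29.6%, with 12.9% of features with a symbol) and 2 fell (7.41%, with 9.55%). The median was 0.29, and 9 rose and 5 fell without array 2 at 24 hpf. The lowest count of rises was 4 (without array 3 at 24 hpf or arrays 1 or 2 at 48 hpf). matn3a, matrilin, a filament protein of cartilage, measured 14.23, 14.19 and 13.85 at 48 hpf, against 9.37, 10.06 and 9.65 at 24 hpf, and rose by 4.39 ± 0.24 (adjusted p 0.000121). nkx3.3, a homeobox factor of the jaw skeleton, rose by 1.77 ± 0.29, and col27a1b, a fibrillar collagen of cartilage and notochord, by 1.23 ± 0.23. oc90, otoconin, which seeds the otoliths, measured 8.74, 8.73 and 8.55 at 48 hpf, against 11.54, 11.70 and 11.99 at 24 hpf, and fell by 3.07 ± 0.20 (adjusted p 0.000198). The other fall was mmp30, a matrix metalloproteinase, of 1.99 ± 0.27. Later bone genes, among them sp7 and runx2b, were measured and did not pass (named after their values were seen).

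Genes of skin and junctions included both rises and falls. cldn7a, a claudin of epithelial tight junctions, measured 10.99, 11.58 and 11.71 at 48 hpf, against 8.41, 7.37 and 8.15 at 24 hpf, and rose by 3.45 ± 0.32 (adjusted p 0.000824). cldn15lb rose by 1.79 ± 0.23. cldn5a, the claudin of vessel and brain barriers, fell by 1.07 ± 0.29 (highest adjusted p 0.15, lost whenever an array other than array 2 at 24 hpf was left out). Of 11 claudins 4 rose and 1 fell (2 rose without array 3 at 24 hpf or arrays 2 or 3 at 48 hpf). Of 25 epidermal and junction genes 5 rose and 3 fell (median 0.14, and 0.069 without array 2 at 24 hpf), with 2 and 1 as the lowest counts (both without array 3 at 48 hpf). These are 20% rising and 12% falling, against 12.9% and 9.55% of features with a symbol. tgm1l4, a transglutaminase, measured 9.83, 10.35 and 9.67 at 48 hpf, against 11.98, 12.03 and 12.58 at 24 hpf, and fell by 2.25 ± 0.26. Of 15 ionocyte genes, which serve salt balance in the skin, 5 rose (33.3%) and none fell (median 0.32). Without array 2 at 24 hpf 5 rose and 1 fell, and without array 1 at 48 hpf 2 rose. The ammonia channel rhcga rose by 1.91 ± 0.28 and stc1l, a stanniocalcin that limits calcium uptake, by at least 1.30 (fitted 1.67 ± 0.27, 24 hpf level within 1 of the random probes on all 3 arrays). Of 8 pigment cell genes 2 rose (25%) and 1 fell (12.5%), the same counts as without array 2 at 24 hpf. pmela, the fibril protein of melanosomes, rose by 1.47 ± 0.24. trpm1a, a cation channel of melanocytes, rose by 0.92 ± 0.20 (highest adjusted p 0.078, lost whenever an array other than array 2 at 24 hpf was left out). gart, a purine synthesis enzyme needed by pigment cells, fell by 1.46 ± 0.24.

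Blood genes fell in part. Of 12 genes of red cells and haem 5 fell (41.7%, with 9.55% of features with a symbol) and none rose (with 12.9%). Their median was -0.79. Without array 2 at 24 hpf 6 fell and 1 rose. Without array 3 at 24 hpf or array 1 at 48 hpf 2 fell. blf, a zinc finger factor of embryonic blood, measured 9.75, 10.11 and 10.22 at 48 hpf, against 12.19, 12.60 and 12.45 at 24 hpf, and fell by 2.38 ± 0.21 (adjusted p 0.000702). blvra, biliverdin reductase, fell by 1.36 ± 0.20. hbbe3, an embryonic beta globin, fell by 1.17 ± 0.24 (highest adjusted p 0.062, lost without array 3 at 24 hpf or array 1 at 48 hpf), and it was the only 1 of 4 measured globins to pass. Of 7 vessel genes 0 passed in limma and 0 by the ordinary statistic (1 at an unadjusted p under 0.05), and 1 fell without array 2 at 24 hpf.

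Liver genes divided. hpdb, which breaks down tyrosine, measured 10.18, 10.60 and 10.69 at 48 hpf, against 7.30, 7.85 and 7.13 at 24 hpf, within 1 of the random probes on 2 of 3 arrays. It rose by at least 2.91, 7.52-fold, over that floor (fitted 3.06 ± 0.26, adjusted p 0.000517). gc, the vitamin D binding protein, rose by 1.52 ± 0.21. The cytochromes of the cyp2aa family fell in 4 of 6 measured members (2 without array 3 at 24 hpf or any 1 array at 48 hpf), and all 6 had negative values, of -1.28 to -0.29. cyp2aa4 measured 13.47, 13.16 and 13.62 at 48 hpf, against 14.81, 14.84 and 14.45 at 24 hpf, and fell by 1.28 ± 0.21. In all 2 of 21 genes of liver and yolk lipid rose (9.52%) and 6 fell (28.6%). Without array 2 at 24 hpf 3 rose and 5 fell, and without array 3 at 24 hpf or any 1 array at 48 hpf 3 fell. Of 9 complement and acute phase genes 3 rose (33.3%, with 12.9% of features with a symbol) and none fell (with 9.55%). Without array 2 at 24 hpf 4 rose and 1 fell. With all arrays c3a.2 rose by 1.14 ± 0.24, f9b by 0.94 ± 0.18 and cfbl by 0.90 ± 0.22 (highest adjusted p 0.068, 0.058 and 0.11). All 3 calls were lost without arrays 1 or 2 at 48 hpf, those of c3a.2 and cfbl also without array 3 of either age, and that of cfbl without array 1 at 24 hpf. Of 9 genes of pancreas and gut cdx1b rose and the protease prss60.1 fell, by 1.07 ± 0.24 (highest adjusted p 0.083, lost without array 1 at 24 hpf or arrays 2 or 3 at 48 hpf). Each is 11.1% of that list, near the 12.9% rising and 9.55% falling among features with a symbol.

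Of 33 measured genes of leukocytes and immunity 0 passed in limma and 0 by the ordinary statistic (1 at an unadjusted p under 0.05), with a median of 0.034. Without array 2 at 24 hpf 1 rose and the median was 0.0039. spi1b, the myeloid factor PU.1, measured 10.82, 10.81 and 11.36 at 48 hpf, against 11.11, 11.64 and 11.28 at 24 hpf (-0.35 ± 0.24, adjusted p 0.369). csf1ra, the receptor of macrophages and yellow pigment cells, measured 10.11, 10.48 and 9.86 at 48 hpf, against 10.03, 9.08 and 9.73 at 24 hpf (0.54 ± 0.29, adjusted p 0.258). In both genes the ages overlapped.

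Stress genes mostly did not pass. Of 18 genes of heat shock and endoplasmic reticulum stress 2 rose and 2 fell (11.1% each way, near the 12.9% and 9.55% of features with a symbol), with a median of -0.04. Without array 2 at 24 hpf 3 rose and 3 fell, and the lowest counts were 1 and 0 (both without array 1 at 48 hpf). hspb2, a small heat shock protein of muscle, measured 10.62, 10.89 and 11.06 at 48 hpf, against 8.74, 9.15 and 9.01 at 24 hpf, and rose by 1.89 ± 0.21 (adjusted p 0.00162). ddit3, the stress factor CHOP, measured 12.90, 12.98 and 12.85 at 48 hpf, against 12.08, 11.84 and 12.14 at 24 hpf, and rose by 0.89 ± 0.18 (highest adjusted p 0.067, lost without arrays 1 or 2 at 48 hpf). hspb7 and hspa13 fell, by 0.90 ± 0.20 and 0.71 ± 0.19 (highest adjusted p 0.086 and 0.13, both lost without array 3 at 24 hpf or arrays 1 or 2 at 48 hpf, and hspa13 also without array 1 at 24 hpf or array 3 at 48 hpf).

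Of 23 genes of oxidative and metal stress 2 rose (8.7%, with 12.9% of features with a symbol) and 3 fell (13%, with 9.55%), with a median of -0.14, and 2 and 6 without array 2 at 24 hpf. Without array 3 at 24 hpf or array 1 at 48 hpf 1 rose and 1 fell. mafga, a small Maf factor that pairs with NRF proteins, measured 10.97, 10.88 and 10.90 at 48 hpf, against 9.47, 9.39 and 9.59 at 24 hpf, and rose by 1.43 ± 0.17 (adjusted p 0.00218). gstp1.1, a glutathione transferase, rose by 1.53 ± 0.33 (highest adjusted p 0.081, lost without arrays 1 or 3 of either age). slc30a1b, a zinc exporter, measured at most 9.44 at 48 hpf, against 10.99, 10.61 and 11.39 at 24 hpf, and fell by 1.83 ± 0.26. sod3a, the extracellular superoxide dismutase, fell by 1.05 ± 0.23 (highest adjusted p 0.080, lost without array 3 at 24 hpf or arrays 1 or 2 at 48 hpf). Of 12 genes of apoptosis 4 rose (33.3%, with 12.9% of features with a symbol) and 1 fell (8.33%, with 9.55%). The gene that fell was casp6a, by 1.06 ± 0.20. Those that rose were tnfsf12, tnfrsf21, birc7 and tnfsf10l3, by 1.02 ± 0.21, 0.93 ± 0.25, 0.86 ± 0.24 and 0.75 ± 0.18. Their highest adjusted p-values in limma with 1 array less were 0.072, 0.15, 0.14 and 0.10. The list's median was -0.40, opposite in sign to its count. Without array 2 at 24 hpf 3 rose and 3 fell, and without any other array 0 or 1 rose.

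The remaining lists changed in both directions or hardly at all. Of 15 genes of cholesterol and lipid synthesis 2 rose (13.3%, with 12.9% of features with a symbol) and 3 fell (20%, with 9.55%). Without array 2 at 24 hpf 2 rose and 4 fell, and without array 1 at 48 hpf 0 fell. The median was 0.036, and -0.025 without array 2 at 24 hpf. The receptor ldlra rose by 1.65 ± 0.29. idi1, an isomerase of the pathway, fell by 1.21 ± 0.23 (highest adjusted p 0.053, lost without array 1 at 48 hpf). Of 5 clock genes (median 0.36, and 0.11 without array 2 at 24 hpf) rorb, a nuclear receptor also found in the retina, rose by 2.51 ± 0.22. It measured 14.80, 14.95 and 14.44 at 48 hpf, against 12.11, 12.10 and 12.46 at 24 hpf. Of 64 solute carriers 10 rose (15.6%) and 4 fell (6.25%), near the 12.9% and 9.55% of features with a symbol (median -0.052). Without array 2 at 24 hpf 12 rose and 17 fell (median -0.20), without any other array 7 to 9 rose and 2 to 4 fell, and 11 of the 64 were over 1 lower on array 2 at 24 hpf than on its pair. Of 6 egg coat and germ line genes dmrta2, a factor also of the forebrain, fell by 1.62 ± 0.26. The egg coat genes zp2.2 and zp2.3 fell by 0.91 ± 0.26 and 0.85 ± 0.24, and neither passed in any of the 6 fits with 1 array less.

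**Figure D3:**
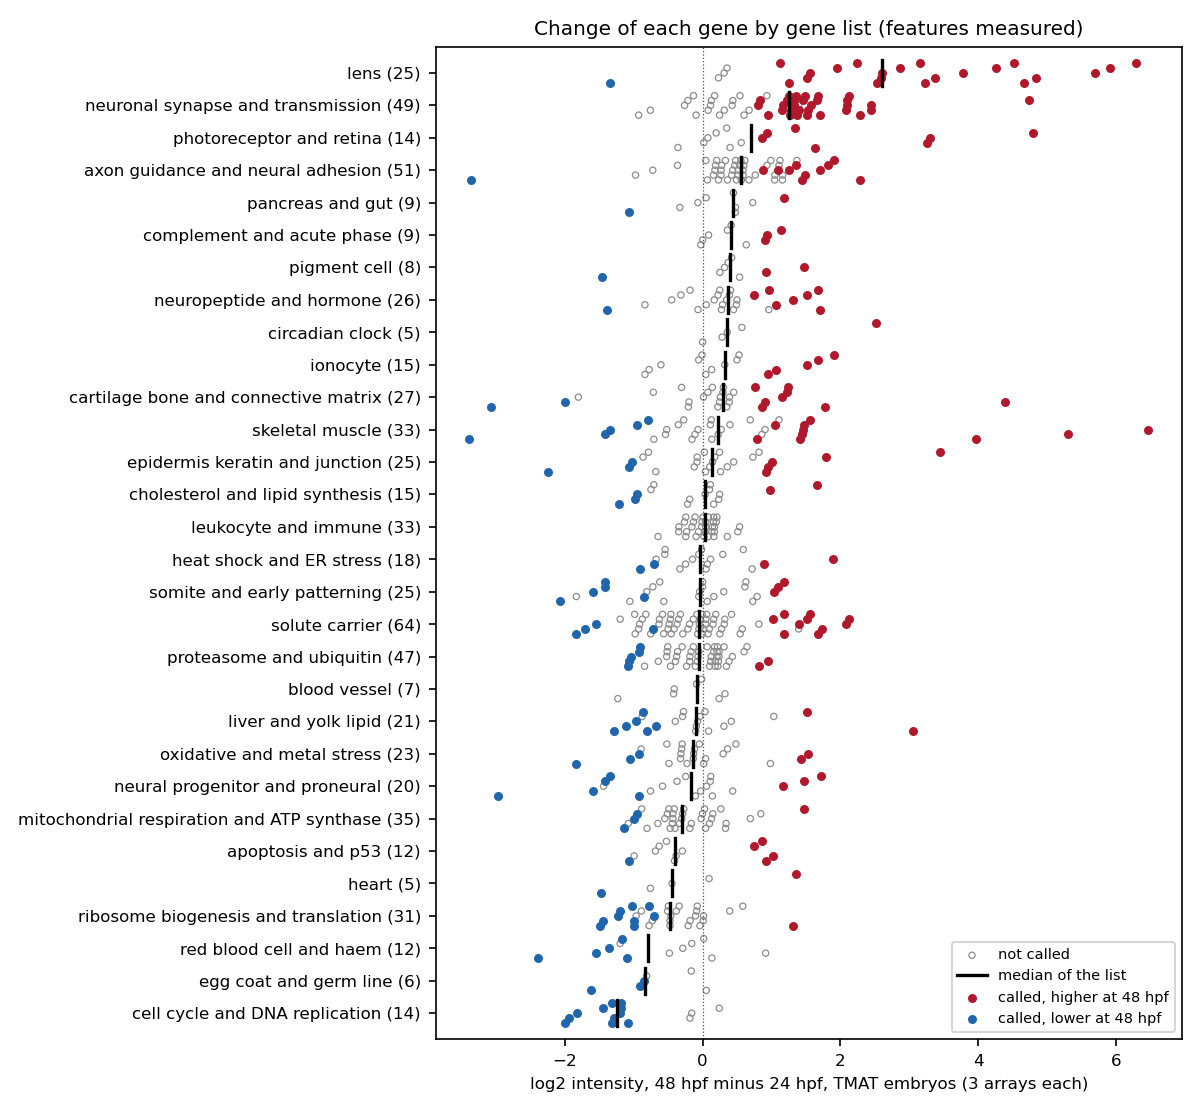
log2 change of each measured gene between the ages in TMAT embryos, by gene list with at least 5 members (number measured in brackets), red dots called higher at 48 hpf, blue dots called lower, open grey circles not called, black bars list medians. Lens stands at a median of 2.60, synapse and transmission at 1.25, and cell cycle and DNA replication at -1.24.

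Other named genes with the largest changes came from no list. fgfbp2b, which binds fibroblast growth factors, measured 14.91, 15.19 and 15.11 at 48 hpf, against 11.30, 11.47 and 10.80 at 24 hpf, and rose by 3.87 ± 0.23. tm6sf2a, a protein of lipid secretion, measured 10.90, 11.37 and 11.47 at 48 hpf, against 13.64, 14.02 and 13.50 at 24 hpf, and fell by 2.47 ± 0.24. hjv, hemojuvelin, a coreceptor of iron control, fell by 1.99 ± 0.24. exosc4, an RNA exosome subunit measured by 3 probes, fell by 2.19 ± 0.43 (highest adjusted p 0.057, lost without array 1 at 48 hpf). The largest fall of all had no symbol: feature OTTDART00000011352 measured 9.11, 8.52 and 8.30 at 48 hpf, against 14.10, 14.54 and 14.31 at 24 hpf (-5.67 ± 0.26). Feature TC235088 followed with -5.07 ± 0.41, and the second largest rise was OTTDART00000027354 with 6.34 ± 0.26.

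The change under TMAT particles was then set beside the same change in embryos that share no samples with it. Fitted on their own 6 arrays each, MES embryos had 15575 called features (42%; 20.8% higher, 21.2% lower) and CON embryos 2665 (7.18%; 5.12% higher, 2.06% lower). The mean correlations within groups were 0.981 and 0.959 (48 and 24 hpf) in TMAT arrays, 0.982 and 0.972 in MES arrays and 0.933 and 0.913 in CON arrays. Counts of calls across agents are therefore not like for like. Across features the TMAT change correlated with the MES change at 0.907 and with the CON change at 0.668. No feature called in TMAT embryos was called the other way in MES or CON embryos. Of the TMAT rises, 92.8% were also called in MES embryos and 41.5% in CON embryos, and these made up 38.7% of the MES rises and 70.2% of the CON rises. Of the TMAT falls, 94.7% were also called in MES embryos and 21.8% in CON embryos, 37.8% of the MES falls and 89.5% of the CON falls. Regardless of calls, 97.7% of TMAT rises had a positive CON value and 94.5% of TMAT falls a negative one.

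The list medians of the day's change in TMAT embryos stand here beside those in the other embryos. Lens genes had a median of 2.60 in TMAT embryos, 2.74 in MES embryos and 2.29 in CON embryos. Synapse genes had 1.25 in TMAT embryos, 1.15 in MES embryos and 1.22 in CON embryos. Cell cycle genes had -1.24 in TMAT embryos, -1.31 in MES embryos and -1.07 in CON embryos. Axon guidance genes had a median of 0.56 in TMAT embryos (0.33 without array 2 at 24 hpf), 0.77 in MES embryos and 1.16 in CON embryos. Other lists also lay further from CON embryos, some with the opposite sign. Clock genes had 0.36 in TMAT embryos, 0.32 in MES embryos and 1.62 in CON embryos. In the same order neural progenitor genes had -0.18, -0.16 and 0.65, apoptosis genes -0.40, -0.36 and 0.56, and solute carriers -0.052, -0.17 and 0.30. Whether list medians differed between agents was not tested. ampd1 rose by 6.46 in TMAT embryos, 6.73 in MES embryos and 6.57 in CON embryos, and smtnl1 changed by -3.38 in TMAT embryos, -3.48 in MES embryos and -2.65 in CON embryos.

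**Figure D4:**
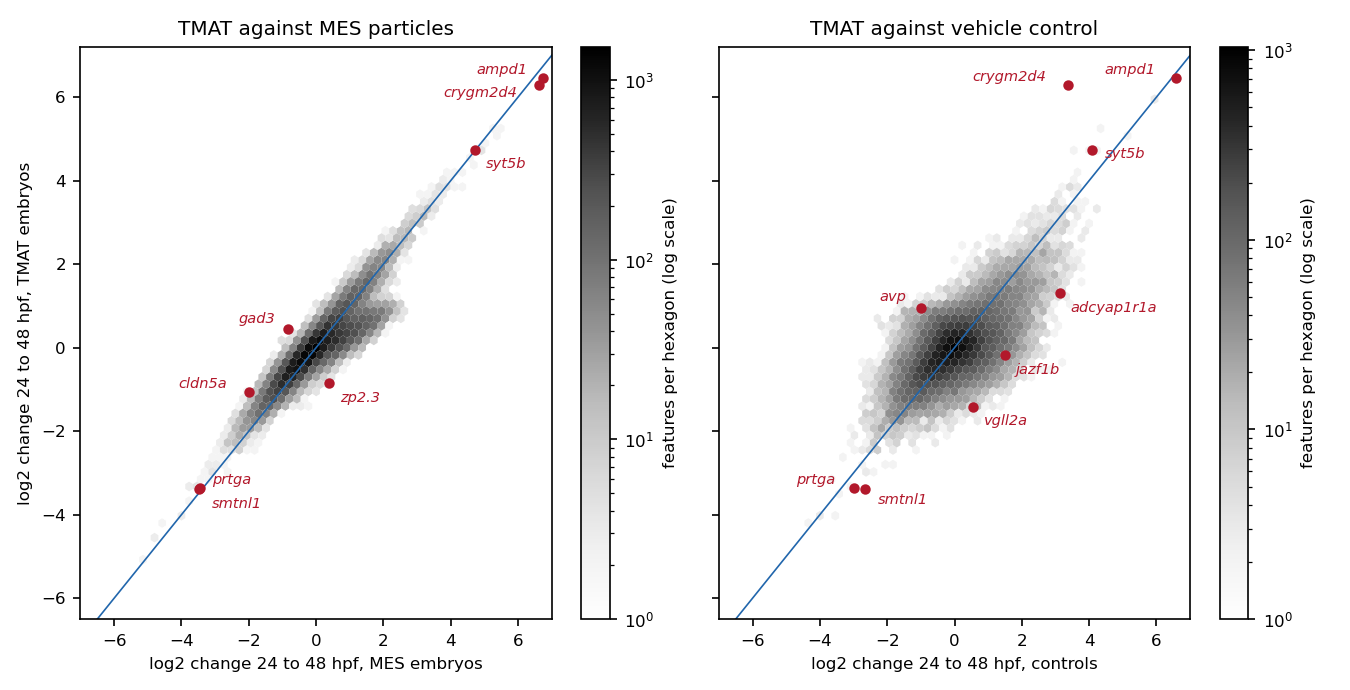
log2 change from 24 to 48 hpf of every feature in TMAT embryos (vertical) against that in MES embryos (left) and in controls (right), hexagons shaded by the number of features on a log scale, the line marking equal change, red points named genes. The correlation across features is 0.907 with MES embryos and 0.668 with controls; crygm2d4 rose by 6.29 in TMAT embryos and had a change of 3.39 in controls that did not pass (limma, adjusted p 0.067).

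Whether the change differed between agents was tested as a difference of changes over all 18 arrays. For TMAT minus CON 0 of 37105 features passed in limma (smallest adjusted p 0.610, 2772 features at an unadjusted p under 0.05, 7.47%), and an ordinary statistic without moderation also gave 0. Weighting arrays by their quality gave 10784 features, so this count depends on the weights. For TMAT minus MES 0 passed (smallest adjusted p 1.00, 245 features at an unadjusted p under 0.05, 0.660%), with 0 by the ordinary statistic and with array weights. The estimate of spread in this fit also drew on the CON arrays, which correlated less within their groups. In limma on the 12 TMAT and MES arrays alone 0 passed, and 1415 features had an unadjusted p under 0.05. The median standard error of a difference was 0.463, which limits the differences that could be detected, and a p that misses the threshold does not show equal change.

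The named genes of TMAT minus CON, those of smallest p, did not pass. vgll2a changed by -1.41 in TMAT embryos and 0.55 in CON embryos, a difference of -1.96 (95% interval -2.99 to -0.94). adcyap1r1a changed by 1.31 in TMAT embryos and 3.13 in CON embryos (difference -1.81), and nrxn3b by 2.45 in TMAT embryos and 3.70 in CON embryos (difference -1.25). crygm2d4 changed by 6.29 in TMAT embryos and 3.39 in CON embryos, a difference of 2.90 (0.98 to 4.83), and avp by 0.96 in TMAT embryos and -0.98 in CON embryos (difference 1.94). The other lower differences were those of jazf1b (-1.69), tpra1 (-1.58) and lrrc30a (-1.56), and the other higher ones those of lgals3bp.3 (1.26), armc7 (1.14), trpv6 (1.13) and elnb (1.02). Centring arrays on their medians moved the median difference of all features to 0.14, against -0.01 as reported. The named genes were picked by smallest p, so the size of their differences follows in part from that choice.

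For TMAT minus MES the largest differences of named genes were smaller than those for TMAT minus CON, and the sets overlapped in size. gad3 changed by 0.44 in TMAT embryos and -0.82 in MES embryos (difference 1.26), and cldn5a by -1.07 in TMAT embryos and -1.99 in MES embryos (difference 0.92). trpv6, a calcium channel of ionocytes, changed by 0.13 in TMAT embryos and -0.83 in MES embryos (difference 0.97). Of the genes of the egg coat, zp2.2 changed by -0.91 in TMAT embryos and -0.016 in MES embryos, zp2.3 by -0.85 in TMAT embryos and 0.39 in MES embryos, and zp3.2 by -0.81 in TMAT embryos and 0.41 in MES embryos. The other higher differences were sema6d (0.86), slc43a3b (0.67) and boka (0.57), and the other lower ones or30bu1 (-1.11), b3gnt2a (-1.02) and chrna4b (-0.72). These did not pass either.

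The progress of each array over the day was placed on a scale set by other embryos, the features called in CON embryos (24 hpf CON mean at 0, 48 hpf CON mean at 100). TMAT arrays at 48 hpf stood at 91.1, 90.0 and 78.7, and those at 24 hpf at 20.5, -8.76 and 18.1. On this scale TMAT arrays averaged 86.6 at 48 hpf and 9.97 at 24 hpf, and MES arrays 86.1 at 48 hpf and 8.94 at 24 hpf. The CON arrays set both the features and the ends of this scale, so a value under 100 does not by itself place TMAT embryos behind CON embryos. Whether they lagged was not tested. On the scale set by MES embryos TMAT arrays averaged 84.8 ± 11.1 at 48 hpf (SD, n = 3) and stood at 23.1, -2.01 and 5.12 at 24 hpf. The ages did not overlap on either scale, and array 2 was the lowest of the 24 hpf arrays on both.

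**Figure D5:**
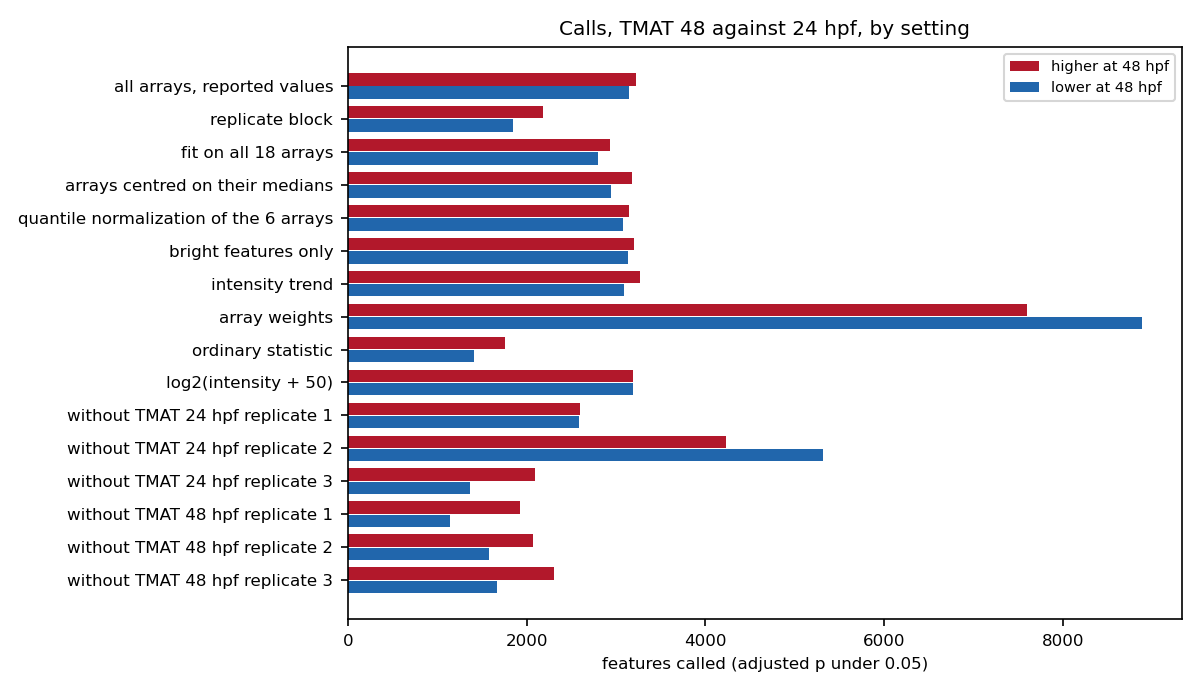
Number of features called higher (red) and lower (blue) at 48 hpf in TMAT embryos, adjusted p under 0.05, under each way of processing the 6 arrays and with each array left out. The reported counts are 3218 and 3141; the longest bars come from array weights, then from leaving out array 2 at 24 hpf.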

How the data were processed

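The authors deposited 1 table an array from a one-colour NimbleGen platform, with an intensity per feature on a linear scale after RMA, per the submitters' processing notes; no version of it is given in the sources used here. RMA subtracts background, normalizes quantiles and summarises probes, and whether all arrays were normalized together is not stated there. The deposited combined table was not used: 2 of its 18 columns equalled the table of their own label, and 1 of the 6 TMAT columns (tolerance 0.001).

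Intensities were turned into log2 values, without a pseudocount, and the random probe feature was set aside. Symbols came through RefSeq accessions for 2659 of 3051 such features (392 had no match). Changes were fitted on the 6 arrays of an agent with limma 3.58.1 in R 4.3.3 (median SE 0.250), and differences of changes on all 18 arrays. The number of arrays limits the precision. Adjustment was by Benjamini-Hochberg over all 37105 features, with 0.05 as the threshold.

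Named were, among called features whose ages did not overlap and that had an informative symbol, the 15 largest rises and falls, up to 6 called members of each of 33 gene lists by smallest p (for stress, apoptosis and leukocyte lists called or not), and the 6 smallest p-values each way for each difference. The members, lists and families were chosen with earlier results of these data known. Alternatives covered the replicate block, all arrays together, scaling, dim features, trend, array weights, the ordinary statistic, an offset of 50 and each array left out. The tests were tested on simulated data. One named gene is not reported here.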

Additional observations from a re-analysis of the deposited data

Results flagged for a closer look

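In 3 named genes the 3 arrays of each age did not overlap and moved in opposite directions under TMAT particles and in another group of embryos. In TMAT embryos the ages did not overlap for 36.2% of all features. These 3 genes were named for the small p of their difference, so opposite directions follow in part from the choice. vgll2a, a muscle cofactor, changed by -1.41 in TMAT embryos and by 0.55 in CON embryos; the difference of -1.96 was tested and did not pass (limma, adjusted p 0.610). gad3, a glutamate decarboxylase, changed by 0.44 in TMAT embryos and by -0.82 in MES embryos, and slc43a3b, a solute carrier, by 0.42 in TMAT embryos and by -0.25 in MES embryos. Their differences of 1.26 and 0.67 were tested and did not pass either (adjusted p 1.00 in both).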

How the results depend on the processing

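With 3 arrays a group, the number of features called moved with the estimate of spread. Against 6359 called (3218 higher, 3141 lower), array weights gave 16480 (7596 and 8884), the ordinary statistic 3169 (1757 and 1412), and leaving out 1 array 3072 to 9543 (1931 to 4230 and 1141 to 5313). Leaving out 1 array gave fewer calls, except for array 2 at 24 hpf. The cause was not tested. All 18 arrays in 1 fit, other scalings, bright features alone, an intensity trend and an offset gave 5733 to 6381. TMAT minus CON gave 0 called under every setting except array weights (10784), and TMAT minus MES gave 0 under every setting.

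Arrays with the same replicate number were not alike throughout. Deviations of same-numbered TMAT arrays correlated at 0.607 for number 1, -0.366 for number 2 and -0.494 for number 3. Array 3 at 48 hpf correlated at 0.655 with array 2 at 24 hpf, and array 2 at 48 hpf at 0.537 with array 3 at 24 hpf. The other pairs of unlike numbers lay at -0.58 to 0.0816. Whether arrays were paired under other numbers was not tested, and no block of such pairs was fitted. With the replicate number as a block 4028 features were called, 2185 higher and 1843 lower.

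Of the 146 named genes called, 78 stayed called under every setting. Changes of sign were seen in 4 named genes, none of them called: or30bu1 (-0.092 with quantile normalization, -0.18 to 0.25 with 1 array left out), trpv6 (-0.017 to 0.35), boka (-0.13 to 0.045) and jazf1b (-0.37 to 0.053). Features within 1 log2 unit of the random probes at both ages made up 6.27%, and their changes cannot be read.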

Other observations

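One set of features was chosen for a larger change in MES embryos than in TMAT embryos. That gap follows from the choice, so the set is given as a description with no test. In 849 features (2.29%) the change over the day was above 1.5 in MES embryos and over 0.8 larger there than in TMAT embryos. Of these 587 carried ENSDART identifiers and 2 had an informative symbol, ada, adenosine deaminase, and msrb2, a methionine sulfoxide reductase. Over all 37105 features 10119 carried ENSDART identifiers and 2466 had an informative symbol. The median change of the 849 features was 0.71 in TMAT embryos, 1.80 in MES embryos and -0.17 in CON embryos. The median log2 intensity of the set was 11.97, 11.51 and 11.10 on the TMAT arrays at 48 hpf, and 11.36, 10.63 and 10.61 on those at 24 hpf. On the MES arrays it was 12.21, 12.82 and 11.77 at 48 hpf, and 10.34, 10.18 and 10.87 at 24 hpf, so MES and TMAT arrays overlapped at each age. On the CON arrays at 24 hpf it ran over 9.39 to 11.58, so single arrays of 1 group differed by more than the TMAT change. What sets these features apart was not tested.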
